A study of Mus musculus with 2 samples.

Results

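The genes described here are Csf2, which encodes GM-CSF, the receptor genes Csf2ra, Csf2rb and Csf2rb2, and Pparg. They were taken by symbol from the deposited gene tables, and all 5 members were found among the 27998 genes listed. GM-CSF binds an alpha chain, encoded by Csf2ra, that pairs with a signalling beta chain. In mice the beta chain encoded by Csf2rb serves GM-CSF, interleukin 3 and interleukin 5, whereas its close relative Csf2rb2 serves interleukin 3. In the lung, GM-CSF is made by epithelial and lymphoid cells and acts through JAK2 and STAT5. It drives the nuclear receptor PPARG in alveolar macrophages, the airspace macrophages that clear surfactant lipid.

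The series holds 2 libraries of single cells from whole lung, 1 labelled control and 1 labelled fibrosis, each from 1 mouse. Both mice were males of the strain C57Bl/6J, 3 months old, with no transgene named in the labels, and were killed 14 days after 100 µg of particles entered the trachea. The protocol names TiO2, a particle used as a control, and crocidolite asbestos, a fibre that scars the lung, but does not tie either to a library. Cells of the digested, perfused lung were captured with 3′ chemistry, in which each unique molecular identifier (UMI) stands for 1 captured transcript.

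The control library held 8280 deposited cells and 36632591 UMIs, against 7173 cells and 38090308 UMIs for fibrosis. Filtering left 7510 and 6559 cells, whose median totals were 3706 and 4237 UMIs. The libraries shared 89 cell barcodes. Clusters were named from marker genes and are called "-like", and 14 classes had at least 50 cells in each library. Levels are given as CPM, the UMIs of a gene per 1000000 UMIs of its class, printed as control and then fibrosis. The 95% intervals are exact and cover counting error only. Since each group is 1 mouse, the spread between mice is unknown and no test was made.

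On GRCm38, Csf2 (ENSMUSG00000018916) lies at chr11:54247271-54249667 on the minus strand. Csf2ra (ENSMUSG00000059326) lies at chr19:61223957-61228429 on the minus strand. The beta chain genes are neighbours on chromosome 15, Csf2rb2 (ENSMUSG00000071714) at chr15:78282507-78305721 on the minus strand and Csf2rb (ENSMUSG00000071713) at chr15:78325752-78353847 on the plus strand. Pparg (ENSMUSG00000000440) covers chr6:115360951-115490399 on the plus strand. All 5 are annotated as protein-coding in GENCODE M21.

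Of the 5 members, 4 have a window in RefSeq (GRCm38.p6). The stretches before the start sites of Csf2ra and Csf2rb2 are printed because only these held a match to the letters named below. Both genes had their highest levels in myeloid classes among the classes compared. So did Pparg, whose windows held no match, so the match does not separate genes with this pattern. Each printed stretch shows the 250 bases before the RefSeq start, 5′ to 3′ on the gene's strand. Capitals mark GAGGAAG, a core bound by the myeloid factor PU.1, or its reverse complement.
Csf2ra, chr19:61228419-61228668: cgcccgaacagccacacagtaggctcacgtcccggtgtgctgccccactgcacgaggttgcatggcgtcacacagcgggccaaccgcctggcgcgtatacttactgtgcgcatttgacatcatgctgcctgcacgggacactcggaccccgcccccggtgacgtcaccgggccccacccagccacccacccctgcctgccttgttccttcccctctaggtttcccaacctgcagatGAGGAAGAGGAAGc
Csf2rb2, chr15:78305722-78305971: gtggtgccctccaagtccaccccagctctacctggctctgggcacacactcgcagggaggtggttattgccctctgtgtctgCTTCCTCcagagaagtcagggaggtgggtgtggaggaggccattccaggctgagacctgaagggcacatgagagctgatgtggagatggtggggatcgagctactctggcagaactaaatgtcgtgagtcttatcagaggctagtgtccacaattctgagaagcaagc
The Csf2ra stretch held 2 overlapping matches next to the start and the Csf2rb2 stretch held 1 match on the other strand. Such a match occurred in 10.6% of all 32851 windows of this length. The Csf2 window and the 3 Pparg windows held none, and no window of these genes held CTCAAG (a core of NKX2-1, in 13.3% of windows), both strands searched. The RefSeq start of Csf2 lies 232 bases before its GENCODE start, so the bases between them were not searched. The RefSeq starts of Pparg lie 193, 1398 and 61115 bases after its GENCODE start. The searches gave letter matches in short windows and not measured binding.

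Csf2 was detected at low level and almost wholly in type II alveolar epithelial (AT2)-like cells, the surfactant-producing cells of the alveolus. Over all kept cells the gene had 39 control and 38 fibrosis UMIs. AT2-like cells held 33 and 34 of them, which is 84.6% and 89.5%. No AT2-like cell carried more than 1 Csf2 UMI, so that 3.30% of 999 control cells and 2.03% of 1677 fibrosis cells had the transcript. For comparison, classical monocyte-like cells, with median depths of 5047 and 4003 UMIs against 5656 and 5483 in AT2-like cells, had no Csf2 UMI. For these monocytes, 0 of 1519 and 0 of 362 cells were taken to allow 3 cells, which is a share of up to 0.197% and 0.829%. This does not limit cells that express the gene below detection.

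On the CPM scale, AT2-like cells had 5.44 CPM (3.74 to 7.64) in control and 3.34 CPM (2.31 to 4.67) in fibrosis. The 2 intervals overlapped. The log2 ratio of fibrosis to control was -0.70 (-1.44 to 0.033), past 1.5-fold with an interval that includes no change. The interval left out no change under 3 other settings. These were the cell-by-cell marker gate (-1.51 to -0.025), clustering at resolution 2 (-1.88 to -0.19) and a class total without mitochondrial, ribosomal and the most abundant genes (-1.53 to -0.064). It included no change with an equal UMI floor in both libraries (-1.44 to 0.029) and without doublet removal (-1.31 to 0.18). The same held without the mitochondrial filter (-1.44 to 0.020) and without shared barcodes (-1.44 to 0.030). Among the 11436 genes with at least 20 UMIs in AT2-like cells, 4.4% were at least 1.5-fold lower and 8.62% at least 1.5-fold higher in fibrosis. The near-equal counts of Csf2 UMIs thus came from fewer AT2-like cells in control and more in fibrosis. Cells with a Csf2 UMI were the deeper ones, with median totals of 7317 against 5620 UMIs in control and 5875 against 5478 in fibrosis.

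The AT2-like class comprised 3 clusters, and the libraries filled them differently. A cluster led by Bex2 and Lyz1 held 765 control and 669 fibrosis cells, with Csf2 at 5.77 and 3.35 CPM (26 and 12 UMIs). A cluster led by Slc26a4 and Il33 held 220 and 953 cells, with Csf2 at 4.79 and 3.39 CPM (7 and 21 UMIs). Csf2 was thus lower in fibrosis in both large clusters, each with an interval of the ratio that includes no change. The small cluster led by Scd1, of 14 and 55 cells, had 0 and 1 UMI.

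Outside the epithelium, the lymphoid cluster here called Gata3-led had 3 Csf2 UMIs in 74 control cells and 2 in 228 fibrosis cells. It stood at 15.0 CPM (3.10 to 43.9) and 3.04 CPM (0.369 to 11.0). Its control value was the highest of any class, but the interval overlaps that of AT2-like cells. This cluster had marker genes of type 2 innate lymphoid cells together with Cd3e, a T cell receptor subunit gene, at 280 and 239 CPM. Foxp3, a regulatory T cell gene, had 70.1 and 102 CPM in it. The cluster is therefore given no cell type name. It is called after Gata3, which is among its leading genes but is not the first of them, Ikzf2. Single UMIs lay in interstitial macrophage-like, NK cell-like and ciliated-like cells of control, and in alveolar macrophage-like and endothelial-like cells of fibrosis. T cell-like, B cell-like, dendritic cell-like and monocyte-like cells had none in either library.

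**Figure D1:**
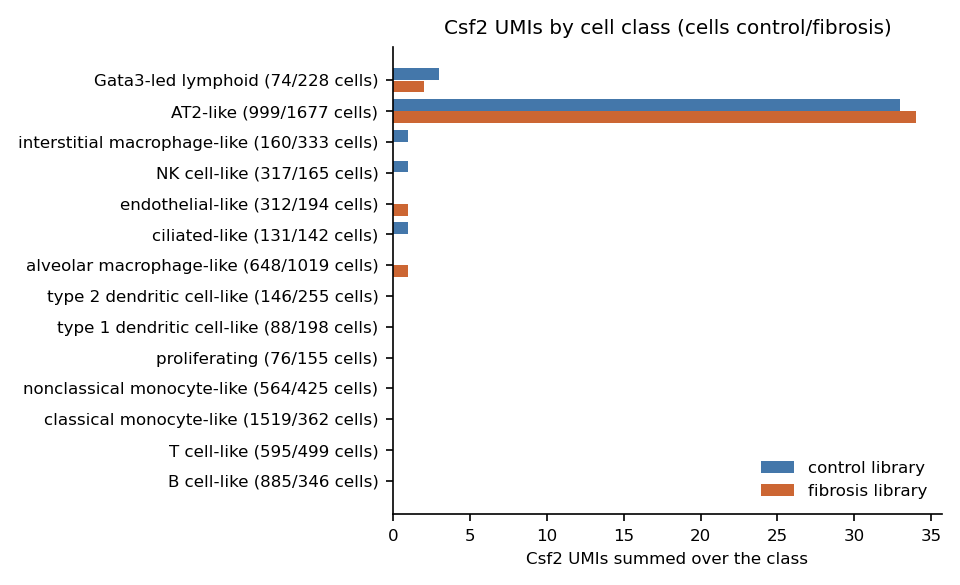
Csf2 UMIs (x axis) summed over the cells of each class (y axis, with the number of control and fibrosis cells), control library in blue and fibrosis library in orange. The classes are ordered by their mean CPM, and AT2-like cells hold 33 and 34 of the 39 and 38 UMIs.

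Csf2ra, the ligand-binding alpha chain, lay at similar levels in 6 myeloid classes and differed little between the libraries in each. Alveolar macrophage-like cells had 216 CPM (200 to 233, 689 UMIs) and 226 CPM (214 to 239, 1324 UMIs), a log2 ratio of 0.065 (-0.069 to 0.20). In the nonclassical monocyte-like class it had 222 and 237 CPM, in the classical one 208 and 205 CPM, and interstitial macrophage-like cells 207 and 227 CPM. Type 1 dendritic cell-like cells had 215 and 207 CPM and type 2 dendritic cell-like cells 200 and 238 CPM. In each library the intervals of neighbouring classes among these 6 overlapped, so their order is not resolved. Cycling cells, a class defined by proliferation genes, followed at 132 and 136 CPM, with intervals apart from the sixth class.

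Below the myeloid and cycling classes, Csf2ra dropped to at most 45.0 CPM in the classes compared, the control value of endothelial-like cells. T cell-like cells, taken as background, had 7.78 and 9.17 CPM, with a UMI in 2.18% and 2.61% of cells at median depths of 2663 and 2660 UMIs. AT2-like cells stood at 12.5 and 13.6 CPM and B cell-like cells at 18.0 and 26.0 CPM. Ciliated-like cells had 19.9 CPM (14.1 to 27.2) and 27.3 CPM (21.3 to 34.5), above the T cell-like intervals of 4.14 to 13.3 and 4.88 to 15.7. Alveolar macrophage-like cells carried a Csf2ra UMI in 61.7% and 64.8% of cells. Of the classes with fewer than 50 cells in a library, neutrophil-like cells had 146 and 150 CPM, migratory dendritic cell-like cells 135 and 129 CPM, and plasmacytoid dendritic cell-like cells 66.7 and 72.1 CPM.

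Of the 14 classes, the Gata3-led lymphoid one (25.0 and 12.2 CPM) and the NK cell-like one (8.15 and 17.7 CPM) had too few Csf2ra UMIs for a fold call. Endothelial-like cells were the only class of the other 12 in which Csf2ra was past 1.5-fold. The level was 45.0 CPM (32.2 to 61.3, 40 UMIs) in control and 13.5 CPM (6.48 to 24.8, 10 UMIs) in fibrosis, a log2 ratio of -1.74 (-2.90 to -0.71). Most of these UMIs lay in the cluster led by Vwf, with 36 and 9. Myeloid transcripts moved in the same cells: the macrophage and monocyte gene Lyz2 had 3748 and 841 CPM, the monocyte receptor gene Ccr2 119 and 16.2 CPM, and the 9 neutrophil markers together 16656 and 1602 CPM, none and 1 of them at 0. The endothelial gene Pecam1 had 1162 and 1167 CPM. The part of these myeloid transcripts in the Csf2ra difference was not tested.

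Csf2rb, the beta chain shared by GM-CSF, interleukin 3 and interleukin 5, was highest in alveolar macrophage-like cells among the 14 classes. These cells had 265 CPM (248 to 284, 846 UMIs) and 274 CPM (261 to 288, 1605 UMIs), apart from the next class in both libraries. The log2 ratio was 0.047 (-0.074 to 0.17). Classical monocyte-like cells had 114 and 127 CPM, nonclassical monocyte-like cells 111 and 104 CPM, type 2 dendritic cell-like cells 121 and 108 CPM, and cycling cells 116 and 129 CPM. Type 1 dendritic cell-like cells were lower at 84.5 and 77.6 CPM. Interstitial macrophage-like cells had 55.1 and 73.9 CPM, so that these macrophages matched the alveolar ones in Csf2ra but had the lowest Csf2rb of the classes just named, with an interval that overlaps that of type 1 dendritic cell-like cells.

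Of the smaller classes, migratory dendritic cell-like cells had the highest Csf2rb level, 606 CPM (424 to 838) in 11 control cells and 335 CPM (282 to 394) in 80 fibrosis cells. Plasmacytoid dendritic cell-like cells had 154 and 157 CPM and neutrophil-like cells 124 and 169 CPM. B cell-like cells had 13.3 and 18.4 CPM, above T cell-like cells at 2.99 and 1.41 CPM. AT2-like cells, the main holders of the ligand transcript, had 2.80 and 3.83 CPM.

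Alpha and beta chain transcripts met in single cells most often in alveolar macrophage-like cells. There 42.7% of 648 control cells and 47.4% of 1019 fibrosis cells had a UMI of both Csf2ra and Csf2rb. The shares were 26.9% and 21.5% in classical monocyte-like cells, 27.3% and 25.8% in type 1 dendritic cell-like cells, 32.9% and 38.7% in cycling cells, and 7.50% and 10.2% in interstitial macrophage-like cells. T cell-like cells, with 0.168% and 0, give the background. These shares rise with depth, and alveolar macrophage-like cells, with medians of 4729 and 5193 UMIs, were deeper than interstitial macrophage-like cells, with 3287 and 3234. Every cell was also thinned to 1000 UMIs in 1 random draw, whose shares have no interval. They were 4.17% and 3.63% in alveolar macrophage-like cells and 1.91% and 2.21% in classical monocyte-like cells. Nonclassical monocyte-like cells had 2.30% and 3.06%, interstitial macrophage-like cells 0.625% and 1.502%, and cycling cells 0 and 4.52%. In the thinned fibrosis library cycling cells thus stood above alveolar macrophage-like cells, so the order at full depth was not kept there.

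Csf2rb2, the beta chain gene for interleukin 3, followed Csf2rb at lower counts. Alveolar macrophage-like cells had 40.1 CPM (33.5 to 47.7, 128 UMIs) and 48.0 CPM (42.5 to 53.9, 281 UMIs), a log2 ratio of 0.26 (-0.049 to 0.57). The other myeloid classes with at least 50 cells in each library lay between 12.4 and 24.1 CPM. Plasmacytoid dendritic cell-like cells had 108 CPM (70.8 to 159) and 125 CPM (75.0 to 195), and migratory dendritic cell-like cells 168 and 91.2 CPM. Endothelial-like cells had 3 UMIs in control and 13 in fibrosis, 3.38 and 17.6 CPM, fewer than the 20 UMIs required for a comparison. AT2-like cells had 0 and 12 UMIs, at most 1.18 CPM.

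The beta chains are related in sequence, which could let reads be shared between them. Of all 50-base windows of the longest GENCODE M21 transcripts, 18.4% of Csf2rb and 19.0% of Csf2rb2 occur exactly in the other gene. In the last 600 bases, where 3′ reads fall, no window did. Csf2rb2 made up 13.1% (11.1% to 15.4%) and 14.9% (13.3% to 16.6%) of the UMIs of both beta chains in alveolar macrophage-like cells, and 12.0% and 9.48% in classical monocyte-like cells. In plasmacytoid dendritic cell-like cells it made up 41.3% (29.0% to 54.4%) and 44.2% (29.1% to 60.1%). The balance of the chains therefore differed between classes beyond counting error, and the counts of both stay uncertain as far as the alignment of shared stretches goes.

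**Figure D2:**
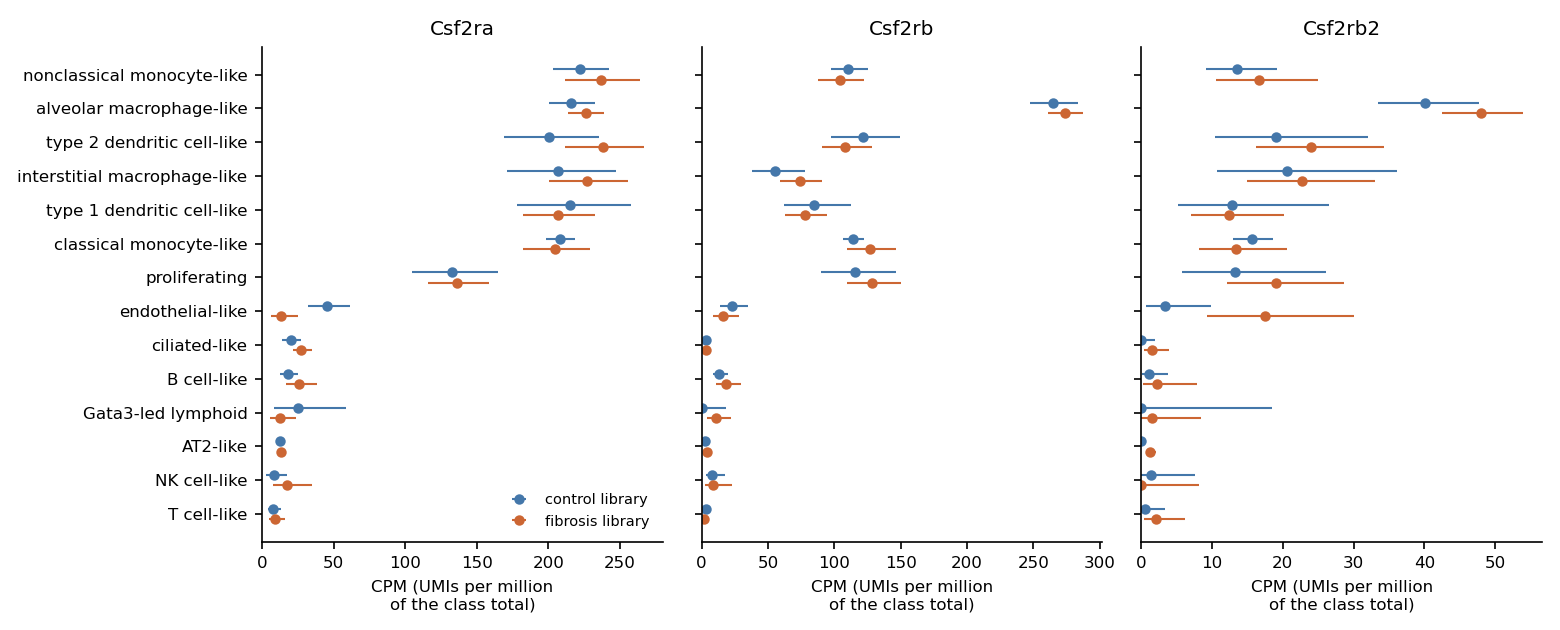
Levels of Csf2ra, Csf2rb and Csf2rb2 (x axes, CPM of the class total, separate scales) in 14 classes (y axis) in the control library (blue) and the fibrosis library (orange), with exact 95% intervals for counting error. Csf2ra is near 200 to 240 in 6 myeloid classes, whereas Csf2rb and Csf2rb2 are highest in alveolar macrophage-like cells.

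Pparg, the nuclear receptor of lipid handling, was concentrated in alveolar macrophage-like cells and lower there in fibrosis. These cells held 304 of 459 control UMIs (66.2%) and 422 of 593 fibrosis UMIs (71.2%). Their level was 95.3 CPM (84.9 to 107) in control and 72.1 CPM (65.3 to 79.3) in fibrosis, with intervals that do not overlap. The log2 ratio was -0.40 (-0.62 to -0.19), outside counting error but under 1.5-fold. Over all kept cells Pparg was 14.1 CPM in control and 17.3 CPM in fibrosis, the opposite direction. Alveolar macrophage-like cells numbered 648 in control and 1019 in fibrosis, and the part of these numbers in that difference was not tested. Among 10285 genes compared in this class, 8.12% were at least 1.5-fold lower and 9.9% at least 1.5-fold higher.

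Within the class the difference lay in 1 of 2 clusters. The cluster led by Fabp1 held 612 control and 578 fibrosis cells, with Pparg at 92.4 CPM (275 UMIs) and 88.2 CPM (250 UMIs), a log2 ratio of -0.068 (-0.32 to 0.18). The cluster led by Mmp12 and Spp1 held 36 and 441 cells, which is 5.56% (3.92% to 7.61%) and 43.3% (40.2% to 46.4%) of the class. Its Pparg level was 136 CPM (29 UMIs) in control and 56.9 CPM (172 UMIs) in fibrosis. Within the fibrosis library, Pparg was thus lower in the Mmp12-led cluster than in the Fabp1-led one, by a log2 ratio of -0.63 (-0.92 to -0.35). Within the control library the few Mmp12-led cells went the other way, at 0.55 (-0.052 to 1.11). The members were left out of the genes used for clustering.

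The receptor genes differed less than Pparg between these clusters of the fibrosis library. In the fibrosis library Csf2ra was 218 CPM in the Fabp1-led and 234 CPM in the Mmp12-led cluster, a log2 ratio of 0.10 (-0.057 to 0.26). Csf2rb was 288 and 261 CPM, a log2 ratio of -0.15 (-0.29 to -0.0042), the same direction as Pparg. Csf2rb2 was 43.0 and 52.6 CPM, a log2 ratio of 0.29 (-0.059 to 0.64). These ratios are each nearer 0 than that of Pparg.

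Other markers moved in alveolar macrophage-like cells together with Pparg. The 10 interstitial macrophage markers summed to 57.1 CPM in control, with 1 at 0, and to 507 CPM in fibrosis, with none at 0, and the complement gene C1qa went from 7.84 to 140 CPM. The 10 alveolar macrophage markers summed to 22452 and 46175 CPM, with 2 higher and 1 lower past 1.5-fold, and the 9 classical monocyte markers to 14971 and 40354 CPM, with 2 of the 7 compared higher and 1 lower, none of either list at 0. Chil3, which is on both lists, had 14751 and 39621 CPM and made up most of both sums. Siglecf and Marco, markers of resident alveolar macrophages, had 141 and 100 CPM and 299 and 200 CPM. The classical monocyte genes Ly6c2 and Ccr2 had 11.3 and 7.68 CPM and 12.5 and 14.0 CPM. The part of these transcripts in the Pparg difference was not tested.

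Nonclassical monocyte-like cells, the patrolling blood monocytes, had the third highest Pparg level in control. They had 26.1 CPM (19.9 to 33.6, 60 UMIs) in control and 15.2 CPM (9.41 to 23.2, 21 UMIs) in fibrosis, a log2 ratio of -0.78 (-1.57 to -0.043), past 1.5-fold. Both clusters of the class were lower in fibrosis, with 29.9 and 16.6 CPM in the larger one and 17.3 and 5.68 CPM in the smaller one, which had 12 and 1 UMIs. Classical monocyte-like cells had 12 UMIs in 1519 control cells and 0 in 362 fibrosis cells, 1.55 CPM (0.801 to 2.71) and 0 (up to 2.46). In nonclassical monocyte-like cells the 9 neutrophil markers summed to 21814 and 9636 CPM, and their part in the Pparg difference was not tested.

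Cycling cells had Pparg at 59.6 CPM (36 UMIs) and 44.8 CPM (54 UMIs), nearly all in 1 of their clusters, with 113 and 85.0 CPM there against 0 and 3.37 CPM in the other. The Gata3-led lymphoid cells had 1 UMI in control and 16 in fibrosis, 5.01 CPM (0.127 to 27.9) and 24.3 CPM (13.9 to 39.5), too few for the comparison. In these cells the interleukin gene Il13 had 0 and 44 UMIs, which is 0 and 66.9 CPM. Il1rl1, the interleukin 33 receptor gene, had 25 and 145 UMIs, which is 125 and 221 CPM. Ciliated-like cells had 6.63 and 9.37 CPM and interstitial macrophage-like cells 5.17 and 10.9 CPM. AT2-like cells had 2.14 and 1.47 CPM (13 and 15 UMIs), a log2 ratio of -0.54 (-1.71 to 0.65). T cell-like cells, the background, had 0.598 CPM from 1 UMI and 0.

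**Figure D3:**
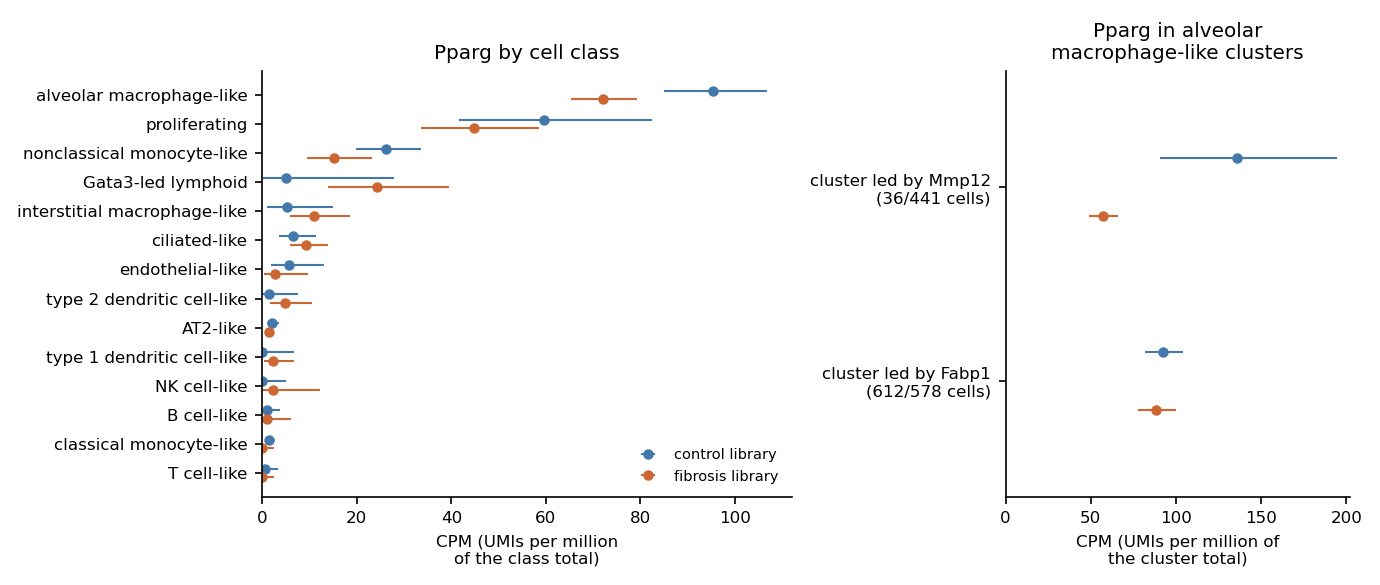
Pparg level (x axes, CPM of the class or cluster total) in 14 classes (left) and in the 2 clusters of alveolar macrophage-like cells (right, with control and fibrosis cell numbers), with exact 95% intervals for counting error. The control (blue) and fibrosis (orange) values of the Fabp1-led cluster are 92.4 and 88.2, and those of the Mmp12-led cluster 136 and 56.9.

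Over all members and classes, 70 pairs could be formed and 35 had at least 20 UMIs. None of the 35 was at least 1.5-fold higher in fibrosis and 3 were at least 1.5-fold lower: Csf2 in AT2-like cells, Csf2ra in endothelial-like cells and Pparg in nonclassical monocyte-like cells. Over all genes, 11.8% of such pairs were higher and 10% lower past this fold. In 3 of the 35 pairs the interval left out no change, the last 2 of these and Pparg in alveolar macrophage-like cells. How often this held over all genes was not counted, so this number has no background. The 35 pairs were therefore past the fold no more often than pairs of genes at large. Csf2rb2 was higher in fibrosis in pairs with fewer than 20 UMIs, which entered none of these counts. Endothelial-like cells had 3 and 13 UMIs of it, a log2 ratio of 2.38 (0.51 to 4.83). AT2-like cells had 0 and 12 UMIs, with a lower limit of 0.73.

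**Figure D4:**
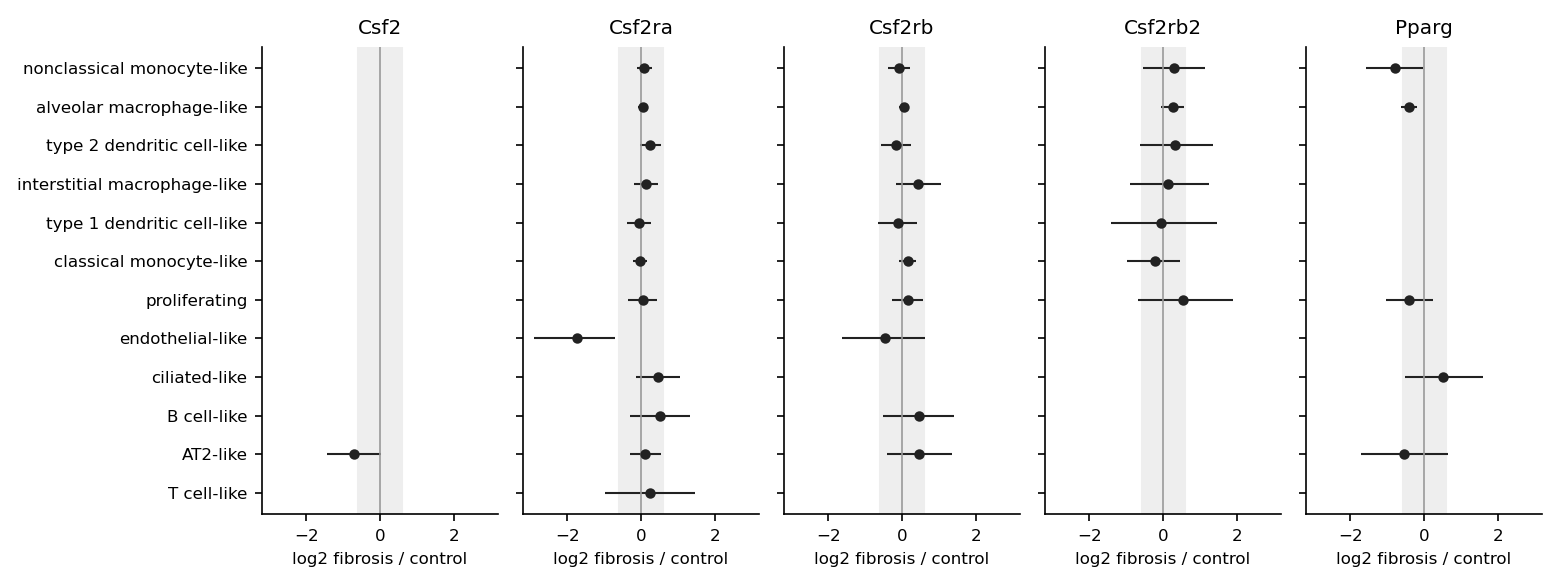
Log2 ratio of fibrosis to control (x axis) of each member in every class (y axis) with at least 20 UMIs of it, with exact 95% intervals for counting error. The grey band marks ratios under 1.5-fold, and 3 of the 35 points lie outside it, all on the lower side.

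Across the 14 classes in both libraries (28 values that share cells, depth and capture), the levels of the receptor genes went together, though their order of classes differed. Pearson's r of log2(CPM + 1) was 0.89 between Csf2ra and Csf2rb and 0.91 between Csf2rb and Csf2rb2, but 0.40 to 0.44 between Pparg and each receptor gene. Among 11454 genes with at least 200 UMIs, the 5 most like Csf2ra were Psap (0.95), Gdpd3, Clec12a, AF251705 and Tgfbi. Those most like Csf2rb were Rassf4 (0.96), Nfam1, Cd68, Mpeg1 and Amz1, and those most like Csf2rb2 were Sdc3 (0.93), Mpeg1, Csf2rb, Psap and Cd68. Pparg had looser neighbours, Rufy4 (0.85), Il1rn, Cebpb, A930007I19Rik and Lyrm4.

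Of 13 genes of GM-CSF receptor signalling counted in alveolar macrophage-like cells, all with at least 20 UMIs, 0 were past 1.5-fold in either direction. Over all genes of the class 9.9% were higher and 8.12% lower. Spi1, which encodes PU.1, had 520 and 374 CPM, a log2 ratio of -0.48 (-0.57 to -0.38). Lyn, a kinase gene, had 210 and 154 CPM, and Ptpn6, a phosphatase gene of inhibitory signalling, 233 and 172 CPM. Ywhaz, a signalling adaptor gene, had 332 and 329 CPM. The list's median log2 ratio was -0.055, against -0.060 for all genes compared in the class. In AT2-like cells 0 of 13 were past the fold in either direction, with a median of 0.16 against 0.052. Over all genes of that class 8.62% were higher and 4.4% lower.

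STAT5 feedback genes and targets included several with higher levels in fibrosis in both classes. In alveolar macrophage-like cells 4 of 11 were at least 1.5-fold higher and 0 lower (9.9% and 8.12% over all genes of the class), with a median log2 ratio of 0.45. Among them were Osm, a cytokine gene, with 7.53 and 19.5 CPM, and the feedback genes Socs3, with 8.78 and 17.8 CPM, and Socs2, with 47.7 and 76.0 CPM. Socs2 was about as much higher in the other classes (a median of 0.61 on the log2 scale). In AT2-like cells 5 of 10 were higher and 1 lower (8.62% and 4.4% over all genes of the class): Cish, a STAT5-induced inhibitor gene, had 6.76 and 14.7 CPM and Socs3 25.4 and 47.1 CPM, whereas the cyclin gene Ccnd2 had 78.8 and 39.0 CPM. Several of these genes also answer to other cytokines.

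Genes known to induce Csf2 were compared where they were expressed. In alveolar macrophage-like cells 3 of 9 were higher past the fold and 0 lower (9.9% and 8.12% over all genes of the class). Il1b, an inflammatory cytokine gene, had 19.4 and 61.0 CPM, and Il1r1, its receptor gene, 2 and 22 UMIs. Il33, an epithelial alarmin gene, had 2.82 and 10.6 CPM, where its log2 ratio was 1.91, against a median of 1.82 over the other classes. In AT2-like cells Il33 had 317 and 494 CPM and was the 1 of 7 past the fold (8.62% higher and 4.4% lower over all genes of that class). Of the other colony-stimulating factors, Csf1 (M-CSF) had 1.25 and 7.51 CPM in alveolar macrophage-like cells, and Il34 had 12.0 and 19.7 CPM in AT2-like cells. Il3ra, the interleukin 3 receptor alpha chain gene, had 6.58 and 12.6 CPM in alveolar macrophage-like cells.

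Among the partners of PPARG, no gene was past the fold in alveolar macrophage-like cells. Of 11 genes of the PPAR and RXR family and cofactors, 0 were higher and 0 lower (9.9% and 8.12% over all genes of the class). Ncor1, a corepressor gene, had 124 and 102 CPM, Rxra, the dimer partner gene, 78.1 and 76.2 CPM, and Ncoa1, a coactivator gene, 56.1 and 40.0 CPM. Nr1h3, which encodes the sterol receptor LXR alpha, had 37.3 and 48.7 CPM. In AT2-like cells 0 of 13 were higher and 1 lower (8.62% and 4.4% over all genes of that class).

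Of 17 lipid targets of PPARG in alveolar macrophage-like cells, 2 were higher and 1 was lower, near the shares over all genes of the class (9.9% and 8.12%), with a median log2 ratio of -0.070. Cidec, a lipid droplet protein gene, had 241 and 113 CPM, a log2 ratio of -1.10 (-1.25 to -0.95). Scd1, a fatty acid desaturase gene, had 92.8 and 209 CPM, and Fabp5, a fatty acid binding protein gene, 1019 and 1933 CPM. Scd1 and Fabp5 were also higher in the other classes, with median log2 ratios of 1.00 and 0.95, against 1.17 and 0.92 here. Cidec went with the clusters, at 254 and 179 CPM in the Fabp1-led cluster of control and fibrosis and 50.3 CPM in the Mmp12-led cluster of fibrosis, but Cidec is among the leading genes of the former cluster, so this difference is a description. The other targets were split between the clusters of the fibrosis library, as grouped here by values already seen. Abcg1, also a leading gene of the Fabp1-led cluster, had 1209 CPM there and 760 CPM in the Mmp12-led cluster. Angptl4, Abca1, Cpt1a, Ucp2 and Lpl were likewise lower in the Mmp12-led cluster, whereas Fabp5, Fabp4, Cd36, Acadl and Scd1 were higher. The intervals of these ratios left out no change, and those of the remaining targets included it. Fabp5 had 1097 CPM in the Fabp1-led and 2717 CPM in the Mmp12-led cluster, and Fabp4 and Cd36, named after their values were seen, 277 and 669 CPM and 246 and 626 CPM. In AT2-like cells 2 of 14 targets were higher and 0 lower (8.62% and 4.4% over all genes of that class). There the sterol transporter gene Abcg1 had 3.30 and 5.90 CPM, against 1275 and 978 CPM in alveolar macrophage-like cells. Macrophage transcripts were also higher in AT2-like cells of fibrosis, where the 10 alveolar macrophage markers summed to 89.5 and 281 CPM, the 9 classical monocyte markers to 118 and 295 CPM, and Mmp12 had 0.330 and 11.6 CPM, none of these lists' markers being at 0. Their part in the Abcg1 difference, and in those of the genes named below for AT2-like cells (Bhlhe40, Irf8, Lipa and Pla2g15), was not tested.

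Of 12 transcription factor genes counted in alveolar macrophage-like cells, 3 were higher past the fold and 0 lower (9.9% and 8.12% over all genes of the class), with a median log2 ratio of 0.17. Irf4 had 2 and 53 UMIs. Egr2, a factor of alveolar macrophage identity, had 31.0 and 52.1 CPM. Irf4 lay mostly in the Mmp12-led cluster, at 15.2 CPM in fibrosis against 2.47 CPM in the Fabp1-led cluster. In AT2-like cells 2 of 9 were higher and 0 lower (8.62% and 4.4% over all genes of that class). These were Bhlhe40, with 18.5 and 40.6 CPM, and Irf8, a myeloid gene, with 5.11 and 10.9 CPM. Irf8 had 104 and 82.5 CPM in alveolar macrophage-like cells.

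Surfactant uptake and breakdown, the task of alveolar macrophages that depends on GM-CSF, had 3 of 16 genes higher past the fold and 0 lower (9.9% and 8.12% over all genes of the class). Psap, which encodes the lysosomal saposins, had 3180 and 5381 CPM, and Slc29a3, a lysosomal nucleoside transporter gene, 18.2 and 36.4 CPM. Sftpa1 had 173 and 295 CPM, but encodes a surfactant protein made by AT2 cells, and Sftpc, another AT2 gene, had 1177 and 1587 CPM in the same cells. The part of AT2 transcripts in the Sftpa1 difference was not tested. In AT2-like cells 3 of 15 were higher and 0 lower (8.62% and 4.4% over all genes of that class). Among the higher ones were the lipase genes Lipa, with 1.65 and 3.73 CPM, and Pla2g15, with 1.98 and 3.93 CPM. Their levels in alveolar macrophage-like cells were 368 and 480 CPM for Lipa and 204 and 167 CPM for Pla2g15.

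**Figure D5:**
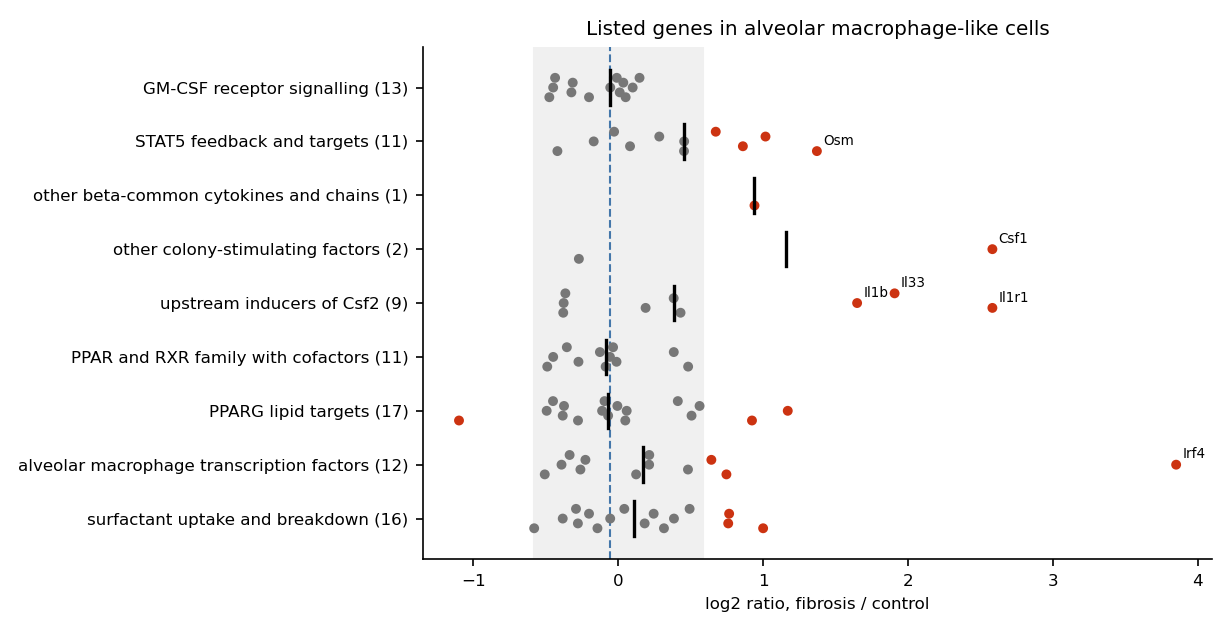
Log2 ratio of fibrosis to control (x axis) of each listed gene with at least 20 UMIs in alveolar macrophage-like cells, by list (y axis, number of genes compared). Points past 1.5-fold are red, others grey on the grey band, black bars are list medians and the dashed line is the median of all genes (-0.060); names are given past a log2 ratio of 1.2.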

How the data were processed

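The authors deposited raw UMI counts per gene and cell for each library. Per the submitters' processing notes, bcl2fastq, Cell Ranger 1.3 and the build mm10 were used, with no role or order given. Cells with under 200 genes or over 10% mitochondrial UMIs were left out. Cells with the top scrublet scores (scanpy 1.11.5) were removed at 0.8% per 1000 cells, 515 and 386 cells. Leiden clustering (2000 variable genes without the members, 30 principal components, 15 neighbours, resolution 1) gave 32 clusters, of which 3 were mixed and entered no class (118 and 154 cells). Clusters were named from marker lists, 6 of whose symbols were absent from the files. Naming thresholds and the name Gata3-led lymphoid were set after the clusters were seen, and names may differ from the study's own.

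UMIs were summed per class and library. Levels have exact Poisson intervals, ratios exact conditional intervals and shares Clopper-Pearson intervals (scipy 1.17.1), at 95%. "Past the fold" means at least 1.5-fold among genes with at least 20 UMIs over both libraries in the class. Counts were not scaled by length. Of each pathway list, up to 4 genes are named: the largest ratios past 1.5-fold whose interval leaves out no change, otherwise those with most UMIs. Some listed genes are not reported here and stand outside the lists' counts and medians. Single transcripts given beside a result (such as Lyz2 or C1qa) and the values of single clusters were added after seeing the data. The members and lists were chosen with earlier results of these data known. Alternatives were a cell-by-cell marker gate, the resolution, filters, shared barcodes, scaling and thinning to 1000 UMIs.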

Additional observations from a re-analysis of the deposited data

How the results depend on the processing

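Of 100 alternative values, 88 stayed within the counting interval of the reported value or, for counts of genes, within 1.5 times of it. The other 12 follow. One random thinning of cells to 1000 UMIs gave log2 ratios of the share of cells with a UMI of 0.39 for Csf2 in AT2-like cells, 0.67 for Pparg in AT2-like cells and 0.062 for Pparg in alveolar macrophage-like cells. The mean over all draws, added after seeing this, gave -0.42, -0.23 and -0.34. These have the sign of the full values of -0.70, -0.54 and -0.40 but are smaller in size. The single draw thus turned the sign of all 3, and the draws' mean kept it. Also added after seeing the data, the Fabp1-led cluster alone gave -0.068 for Pparg, and the Mmp12-led cluster alone gave -1.25 for Pparg, 0.37 for Csf2rb and 0.69 for Csf2rb2, with 36 control cells. At resolution 2 the share of Csf2 UMIs in AT2-like cells of the fibrosis library was 63.2%, because a cluster of 194 and 310 cells with AT2 markers stayed unnamed. Over all settings this share ran from 63.2% to 89.5% in fibrosis and from 71.1% to 89.2% in control. Genes past the fold numbered 1853 in alveolar macrophage-like and 1489 in AT2-like cells, 722 and 549 at a fold of 2, and 3291 and 2765 with at least 5 UMIs. Csf2ra in alveolar macrophage-like cells stayed between 0.0081 and 0.13 on the log2 scale.

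No paired analysis was possible because each group is 1 mouse and the groups share only the number 1. Between-mouse spread is not measured, and fewer cells and less RNA per cell are told apart only through the cell classes. In a share of cells a count of 0 was taken to allow up to 3 cells, and in a level up to the exact Poisson limit.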
